A study of Mus musculus with 14 samples.

Results

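Genes of retinoid uptake and signaling were followed in single-nucleus RNA-seq of mouse brain vascular fragments and whole retina, from mice that lost the TGF-beta receptor gene Tgfbr1 in endothelial cells and from control mice. The 9 genes were Stra6, Rbp4, Crabp1, Aldh1a1, Aldh1a2, Aldh1a3, Rarb, Dhrs3 and Cyp26b1, chosen by name as genes that carry, bind, make, reduce, degrade or sense retinoids. Earlier results of these data were known when the genes were chosen. They are 9 of the 26528 genes counted in the brain matrix and 9 of the 28316 counted in the retina matrix. The study asked what the loss of endothelial Tgfbr1 does to vessels and neighbouring cells of the retina and brain.

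Knockout mice (CKO) carried Cdh5CreER (VEcadCreER in the sample labels), which drives Cre in endothelial cells, with 1 floxed and 1 null Tgfbr1 allele, and were given 4-hydroxytamoxifen from postnatal day 3 to day 5. Control mice are called wild type in the labels and phenotypically wild type in the paper, which for control retinas gives Cdh5CreER with 1 floxed and 1 normal Tgfbr1 (or Tgfbr2) allele as typical. The genotype of the controls in these libraries was not found stated, and it is not certain from the sources used here whether they received 4-hydroxytamoxifen. Brain: 1 control and 1 CKO library, each from 2 pooled brains, after enrichment of vascular fragments on Ficoll. Retina: 1 control and 11 CKO libraries of whole retina, with 2 versions of the PIPseq kit (the later version for CKO replicates 8 to 11). All tissue was from postnatal day 14 by the paper, while the labels say young adult. The null allele is present in every cell of a CKO mouse. If the controls lack it, cells other than endothelium differ in genotype as well.

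Retinol travels in blood bound to the protein made from Rbp4 and enters cells through the receptor made from Stra6. Inside cells it is oxidized to retinal and then, by the Aldh1a enzymes, to retinoic acid, which Crabp1 binds, Cyp26b1 degrades and the nuclear receptor made from Rarb senses, while Dhrs3 turns retinal back into retinol. Stra6, Rarb, Dhrs3 and Cyp26b1 are also known as genes that retinoic acid can induce in some cells.

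Counts are unique molecular identifiers (UMIs), each standing for 1 captured RNA molecule, summed over the nuclei of a cell-type label within a library. Levels are given as CPM, the UMIs of a gene over all UMIs of that sum, on the usual fixed scale. As an example, 616 Stra6 UMIs among the 49798325 UMIs of the brain control library are 12.4 CPM. The authors' labels were used as they stand. In brain they include ECs (endothelial cells), glia, vSMCs (vascular smooth muscle cells), CP_6, CP_8 and numbered GABA and Glut clusters. In retina they are MG (Muller glia), Rods, Cones, RBC and CBC (rod and cone bipolar cells), GABA_AC and Gly_AC (GABAergic and glycinergic amacrine cells), HC (horizontal cells), RGC (retinal ganglion cells), Astrocytes and Immune_cells. The retina has no endothelial label.

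The brain control library held 16649 nuclei and 49798325 UMIs, with a median of 1541 per nucleus. The brain CKO library held 14675 nuclei and 31033373 UMIs, with a median of 1395. The retina control held 11513 nuclei, 30989702 UMIs and a median of 1595. Retina CKO libraries held 104 (replicate 4) to 18862 (replicate 5) nuclei, median 4210, and 90449 to 55803724 UMIs, median 16443337. Their median UMIs per nucleus ran from 613 to 4041, median 1830.5. Because replicate 4 is so small, it entered only the RGC and Immune_cells comparisons, the labels in which it had at least 20 nuclei.

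Tgfbr1 itself read 36.5 CPM (95% counting interval 34.8 to 38.2) in the brain control and 26.2 (24.4 to 28) in the brain CKO. In retina it read 89 (85.7 to 92.4) in the control and 71.4 to 87 in the CKO libraries, apart from replicate 4 at 365 with only 33 UMIs. These kits count fragments near the 3′ end, which may lie outside the deleted part, so the values check neither the deletion nor the labels. Libraries shared few cell barcodes: 2 between the brain libraries (31324 nuclei), 10 among the retina libraries (77676 nuclei) and 14 between the tissues. Libraries also differed in sex-linked genes: Xist read 1963 CPM in the brain control and 1.29 in the brain CKO, with the Y-linked gene Ddx3y at 27.1 and 63.1. In retina, Xist read 6779 in the control, 5577 to 6823 in CKO replicates 1, 2, 4 and 7, and 0.365 to 12.9 in the other CKO replicates.

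The labels were set against lists of well-known marker genes. ECs held all 9 of 9 endothelial markers, at 11932 CPM, against 5296 in the next label, vSMCs. The label glia was highest for fibroblast markers (9 of 9, 10912 CPM, next vSMCs at 2613), and it is read here as fibroblast-like nuclei under the authors' name. CP_8 was highest for choroid plexus epithelial markers (8 of 8, 42734 CPM, next vSMCs at 4151), and CP_6 for markers of ciliated ependyma (6 of 6, 7039 CPM, next CP_8 at 610). Oligodendrocyte markers read 24617 CPM in oligodendrocytes and microglia markers 6282 in microglia. The next label for both was Glut_20, at 6165 and 262 CPM, so Glut_20 is not read here as neurons alone. In retina, the MG label read 3112 CPM of Muller glia markers, a little under the 3338 of the small Astrocytes label. Bipolar markers read 24831 in RBC and 6280 in CBC.

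The brain comparison asks which members differ between the 2 libraries within a label. With 1 library per genotype no test between genotypes is possible, and no p value is given. All brain intervals are 95% intervals from counting error only, which leave out differences between animals and between library preparations. A gene is called lower or higher when its CKO CPM is at most 0.5 or at least 2 of control, given at least 20 UMIs over both libraries. Calls use the ratio of the counted UMIs, so that 0 UMIs on 1 side always passes. Where 1 side had 0 UMIs, the fold is written with that side at a floor of 3 UMIs, as at least that many fold.

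ECs are the cell type in which the Cre is meant to act, and deletion in them was not checked here. The paper already shows Stra6 as decreased in CKO ECs of these data, and the members were chosen with earlier results known. Counts and medians of the members in ECs are therefore not independent of that choice. Of the 5 members with at least 20 UMIs, 2 were lower (Stra6 and Dhrs3) and 0 were higher. Among all 13154 genes with enough UMIs in ECs, 5.79% were lower and 11.2% were higher. The median log2 ratio of CKO to control was -0.84 over the 5 members and 0.14 over all genes. The -0.84 is the value of Aldh1a1 alone (ratio 0.559). In EC nuclei without fibroblast-marker UMIs that ratio was 1.52 (0.65 to 3.76). The intervals of Aldh1a2 and Rarb span 1, so the median does not show a fall of the members as a set. The 2 EC groups held 2475 control and 2944 CKO nuclei.

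Stra6, the uptake receptor, had 293 UMIs in control ECs and 42 in CKO ECs. This is 50.5 CPM (44.9 to 56.6) in control and 6.13 CPM (4.42 to 8.29) in CKO. The ratio was 0.121 (0.0857 to 0.168), or 8.24-fold lower, and the 2 intervals lay far apart. At least 1 Stra6 UMI was seen in 229 of 2475 control EC nuclei (9.25%, 8.14 to 10.5) and in 41 of 2944 CKO EC nuclei (1.39%, 1 to 1.88). Median depth was 1347 UMIs per control EC nucleus and 1491 per CKO EC nucleus. After thinning each nucleus to 500 UMIs the Stra6 shares were 2.53% and 0.346%. In oligodendrocytes, taken as a type that should lack the gene, Stra6 was seen in 0.166% of control nuclei (1 of 603, median depth 2328) and in 0 of 640 CKO nuclei (median depth 954), where a floor of 3 nuclei would be 0.469%. Among control EC nuclei with Stra6, 185 held 1 UMI, 35 held 2 and 9 held 3 or more, against 40, 1 and 0 in CKO.

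Dhrs3, the retinal reductase, had 176 UMIs in control ECs and 86 in CKO ECs. This is 30.3 CPM (26 to 35.2) in control and 12.6 CPM (10 to 15.5) in CKO. The ratio was 0.414 (0.316 to 0.538), or 2.42-fold lower, and the intervals did not meet. Dhrs3 was seen in 6.46% (5.53 to 7.51) of control and 2.65% (2.1 to 3.3) of CKO EC nuclei, and in 1.75% and 0.346% after thinning to 500 UMIs. In oligodendrocytes Dhrs3 was seen in 0 of 603 control nuclei, where a floor of 3 nuclei would be 0.498%, and in 0.312% of CKO nuclei.

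Aldh1a1, which oxidizes retinal, had 150 and 99 UMIs in control and CKO ECs. Its level was 25.9 CPM (21.9 to 30.3) in control and 14.4 CPM (11.7 to 17.6) in CKO, a ratio of 0.559 (0.429 to 0.725) that did not reach the fold of 2. In the 1711 control and 1774 CKO EC nuclei without any UMI of the fibroblast markers, Aldh1a1 read 3.91 and 5.95 CPM on 10 and 16 UMIs. Its ratio there was 1.52 (0.65 to 3.76), so the direction turned. Stra6 in those same nuclei read 66 CPM in control and 7.07 in CKO, a ratio of 0.107 (0.0629 to 0.173). Dhrs3 in them read 30.5 and 9.67 CPM, a ratio of 0.318 (0.195 to 0.501).

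Aldh1a2, a second retinal dehydrogenase, had 26 and 23 UMIs in ECs, at 4.48 CPM (2.93 to 6.57) in control and 3.36 (2.13 to 5.04) in CKO. The ratio of 0.749 (0.408 to 1.37) had an interval that spans 1, and the mean of each nucleus' own CPM gave 1.39. Rarb, the receptor, read 7.07 CPM (5.07 to 9.59) in control ECs and 5.55 (3.92 to 7.61) in CKO ECs, a ratio of 0.785 (0.491 to 1.25) with overlapping intervals. Cyp26b1, which degrades retinoic acid, had 5 and 10 UMIs, a ratio of 1.69 (0.527 to 6.31). Crabp1 had 1 UMI in control ECs and 0 in CKO ECs, and Rbp4 and Aldh1a3 had 0 in both, where 3 UMIs would be 0.517 CPM in control and 0.438 in CKO.

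Endothelial nuclei were also chosen in other ways. In all nuclei of any label with UMIs of at least 2 endothelial markers (3224 control, 3121 CKO), Stra6 read 38.7 and 8.98 CPM, a ratio of 0.232 (0.177 to 0.301). Dhrs3 in those nuclei had a ratio of 0.47 and Aldh1a1 of 0.437. ECs carried many pericyte marker UMIs, and only 363 control and 133 CKO EC nuclei had none. In these, Stra6 had 10 and 0 UMIs (44.5 CPM in control), too few for a call, and the interval of its ratio ran from 0 to 1.31 and spans 1. Dhrs3 had 20 and 1, at 88.9 and 13.1 CPM, a ratio of 0.147 (0.00355 to 0.921).

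Marker sums in the EC label differed between the libraries too. Endothelial markers (9 of 9 seen in each library) read 13443 CPM in control and 10652 in CKO, with Flt1 the most abundant at 3982 and 2745. Pericyte markers (8 of 8) read 8390 and 7127, led by Rgs5 at 5631 and 4831. Fibroblast markers (9 of 9) read 950 and 695, led by Col1a2 at 322 and 256. Choroid plexus markers (8 of 8) read 1125 and 481, nearly all of it Ttr at 1113 and 472. What part nuclei or RNA of these other types had in the EC values of the members was not tested. Stra6 UMIs per Aldh1a2 UMI were 11.3 in control ECs and 1.83 in CKO ECs, against 0.546 and 0.99 in glia, 0.548 and 0.182 in vSMCs, and 6.5 and 4.5 in CP_8, the last on 4 Aldh1a2 UMIs in each library.

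Of 61 further genes named for retinoid handling and signaling, 60 were found in each matrix and 35 had at least 20 UMIs in ECs. Their median log2 ratio was 0.11. Lower were Ttr (1113 to 472 CPM, ratio 0.424), Nav2 (14.8 to 5.98, 0.404) and Zbtb16 (121 to 50.8, 0.421). Higher were Dgat1 (0.689 to 6.28 CPM, ratio 9.1, 3.31 to 34.9, on 4 and 43 UMIs), Adh1 (3.96 to 23.8, ratio 6) and Abca4 (12.6 to 36, ratio 2.86). In other labels Ttr was also called lower in CP_6, vSMCs, pericytes, OPCs, Glut_0, Glut_1, Glut_5, Glut_11, Glut_19 and Glut_21. Of all genes, 40.5% were lower in pericytes, 17.8% in Glut_5, 14.3% in OPCs and 4.38% to 12.2% in the rest of these labels. Ttr was called higher in astrocytes and oligodendrocytes, where 8.81% and 3.77% of all genes were higher. Nav2 was lower in Glut_11, Glut_17 and microglia (where 52.1% of all genes were lower) and higher in GABA_22 and Glut_21. Zbtb16 was lower in Glut_19. Dgat1 was higher in CP_6, Glut_14 and Glut_21 and lower in GABA_9, while Adh1 was lower in glia and Abca4 in Glut_0.

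**Figure D1:**
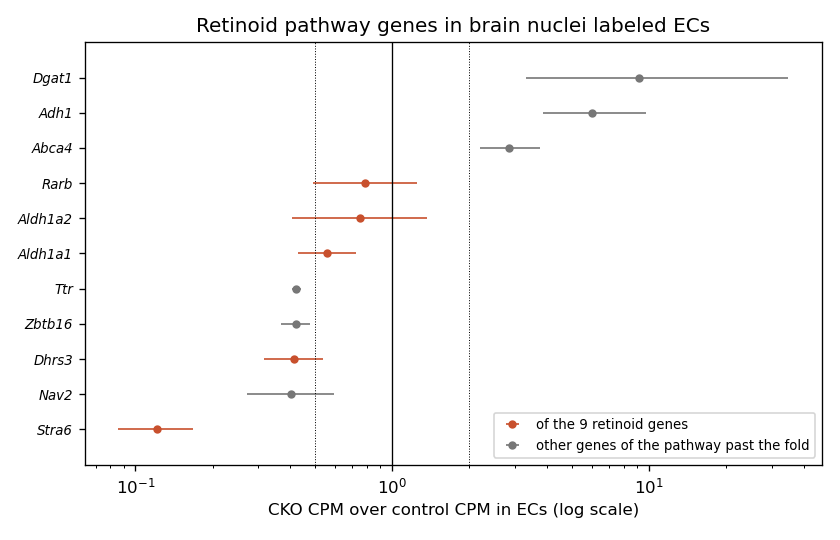
Ratio of CKO to control CPM in the brain EC label on a log axis, for the 5 members with at least 20 UMIs in red and the 6 further retinoid genes past the fold in grey; bars are 95% intervals from counting error only, and dotted lines mark ratios of 0.5 and 2. Stra6 lies furthest to the low side.

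The next question is where in the brain each member was read, and in what order. Comparing CPM between labels within a library rests on 1 library per genotype, and intervals show counting error only. In order of role, uptake comes first.

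Stra6 in the control brain was highest in glia at 151 CPM (133 to 170), then ECs at 50.5, vSMCs at 14.9 (9.43 to 22.3) and CP_8 at 11.4 (7.47 to 16.8). The steps from glia to ECs and from ECs to vSMCs lay beyond the intervals, while vSMCs and CP_8 were not separate. In the CKO brain Stra6 was again highest in glia at 208 (170 to 252), followed by CP_8 at 25.2 (14.9 to 39.8), vSMCs at 7.74 on 2 UMIs, ECs at 6.13 and CP_6 at 5.85 (2.53 to 11.5), the last 3 of which overlapped. ECs thus held 47.6% of all Stra6 UMIs in control and 23.5% in CKO, and glia held 42.4% and 58.1%. Rbp4, the carrier, was sparse, with 31 UMIs in the whole control library and 17 in the CKO. Its highest control label was Glut_20 at 13.3 CPM on 7 UMIs, followed by glia at 8.08 on 14. In CKO its highest label was Glut_14 at 8.8 CPM on 11 UMIs.

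Crabp1, the binding protein, had 15 UMIs in the control brain and 2 in the CKO, with 7 of the 15 in Glut_20. Aldh1a1 was highest in astrocytes at 774 CPM (728 to 822) in control and 461 (404 to 524) in CKO. In control it was followed by glia at 252 (229 to 276), vSMCs at 51.1 (40.4 to 63.7), CP_6 at 29.1 (23.6 to 35.5) and ECs at 25.9, with CP_6 and ECs not separate. Astrocytes held 52.2% of its UMIs in control and 46.7% in CKO. Aldh1a2 was read mostly in glia, at 276 CPM (252 to 302) in control and 210 (172 to 255) in CKO, which is 81.2% and 65.6% of its UMIs. Next came vSMCs at 27.2 in control and 42.6 (21.3 to 76.2) in CKO, and astrocytes read 11 (6.16 to 18.2) and 15.8 (6.83 to 31.2). Between them stood microglia at 12.5 on 1 UMI in control and Glut_20 at 16.9 on 3 UMIs in CKO, neither apart from astrocytes. Aldh1a3 had 49 and 43 UMIs, mostly in Glut labels, with 5 of the 43 in GABA_9. Its highest control value was in Glut_19 at 6.46 CPM on 9 UMIs. These came from 2 of 218 nuclei, with 6 in a single nucleus, so the place of Glut_19 rests on 2 nuclei.

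Dhrs3 in the control brain was highest in microglia at 363 CPM (243 to 521), followed by glia at 72.7 (60.6 to 86.6) and CP_8 at 72.6 (61.9 to 84.5), which were level. vSMCs at 52.4 and CP_6 at 52.1 came next, also level with each other. In CKO, glia read 102 (76.1 to 134), CP_8 78.3 (59.1 to 102), astrocytes 51.4, vSMCs 50.3 and CP_6 41.7, and the pericyte value of 109 rested on 1 UMI. Cyp26b1 was highest in astrocytes at 77.1 CPM (63 to 93.3) in control and 101 (75.1 to 133) in CKO. Next came glia at 52.5 (42.3 to 64.5) and 60.1 (40.5 to 85.8), overlapping astrocytes in both libraries. Glut_20 at 26.6 (14.5 to 44.6) and 56.2 (26.9 to 103) overlapped glia in both libraries and astrocytes in CKO. Rarb was highest in GABA_9, at 1181 CPM (1140 to 1222) in control and 1392 (1333 to 1453) in CKO, which is 58.8% and 68.8% of its UMIs. It was followed by glia at 313 (287 to 340) and 343 (293 to 398), and by CP_6 at 151 (138 to 165) and 169 (148 to 192). In control the intervals were apart at each step, while in CKO pericytes lay between glia and CP_6 at 217 on 2 UMIs (26.3 to 784), overlapping both.

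**Figure D2:**
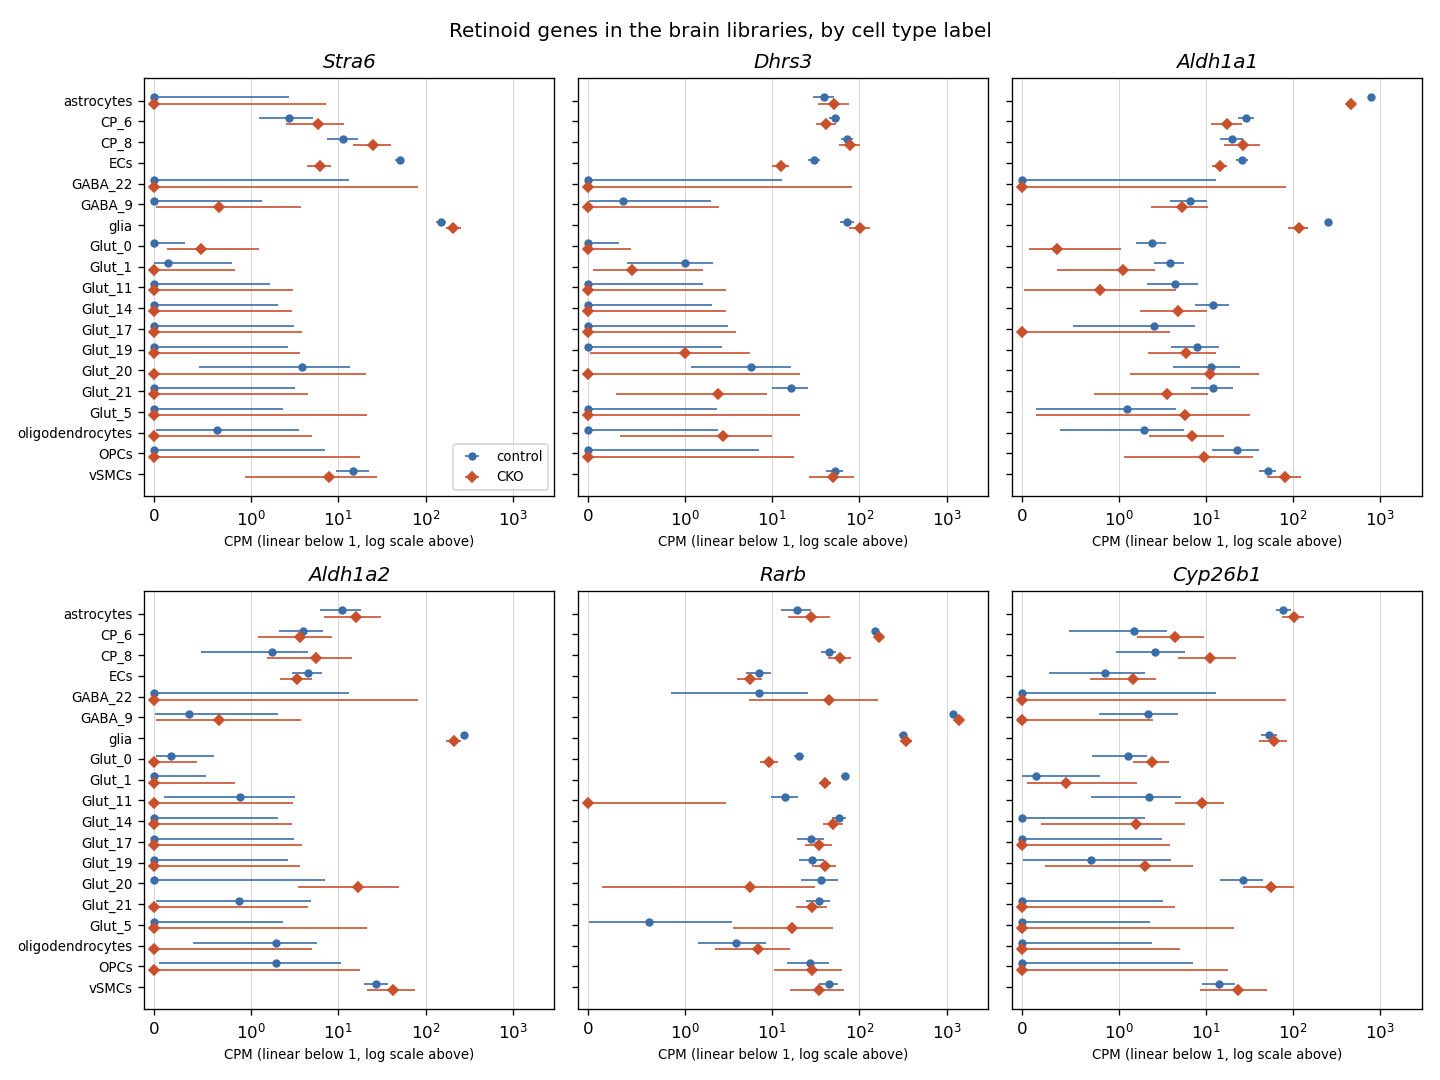
CPM of 6 members in the brain labels (scale linear below 1 and logarithmic above), control as blue circles and CKO as red diamonds, with 95% intervals from counting error only. The EC values of Stra6 lie far apart, with control above CKO, while its glia values lie closer together, with CKO above control.

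Differences between the libraries in labels other than ECs were then read in the same way. Over all 21 brain labels, 49 pairs of member and label had at least 20 UMIs, in 17 labels. Of these, 11 pairs in 9 labels were lower and 2 were higher. Among the 11 is Dhrs3 in microglia, which had 0 CKO UMIs and does not reach the fold of 2 with the floor. Among 153470 pairs of any gene and label, 10.6% were lower and 5.96% were higher. The 61 further retinoid genes gave 403 pairs, of which 53 were lower and 31 higher. Some labels held far fewer nuclei in the CKO library, as in microglia (129 control, 11 CKO), pericytes (201 and 22) and Glut_5 (1858 and 251).

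Stra6 in glia read 151 CPM in control and 208 in CKO, a ratio of 1.38 (1.09 to 1.74), without a call, on 1227 and 419 nuclei. Scaling by TMM (a trimmed mean of log ratios between libraries) lowers ratios in glia by 0.22 log2. For Aldh1a1 in glia it took the ratio from 0.462 to 0.398. The Stra6 ratio and interval given here leave this scaling out. It was seen in 12.6% of control and 15.5% of CKO glia nuclei, or 6.77% and 10.8% after thinning to 500 UMIs, with median depths of 879 and 582. In CP_8 Stra6 read 11.4 and 25.2 CPM on 26 and 18 UMIs, a ratio of 2.2 (1.14 to 4.17), which was called higher against 5.58% of all genes in CP_8. With the shallower nuclei left out that ratio was 1.63, below the fold. Choroid plexus RNA is plentiful in this preparation, and its part in the Stra6 values was not tested. In vSMCs Stra6 read 14.9 and 7.74 CPM on 23 and 2 UMIs, a ratio of 0.521 (0.0595 to 2.11). That interval holds both 1 and the EC ratio, so vSMCs could not be told apart from either.

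Aldh1a1 was the member with the most lower calls outside ECs. In glia it read 252 CPM in control and 116 (88.2 to 150) in CKO, a ratio of 0.462 (0.345 to 0.608), where 11.1% of all genes were lower. It was seen in 23.3% and 11% of glia nuclei, or 13.2% and 6.37% after thinning. The fibroblast marker sum of the glia label was 10809 CPM in control and 11268 in CKO (9 of 9 markers seen, Bnc2 most abundant at 3604 and 5078). In astrocytes Aldh1a1 read 774 and 461 CPM, a ratio of 0.596 (0.515 to 0.687) that did not reach the fold. It was seen in 51.8% of control and 23.9% of CKO astrocyte nuclei, at median depths of 1150 and 578, and in 31.4% and 18.3% after thinning. In Glut_0 Aldh1a1 had 28 and 3 UMIs (2.41 and 0.362 CPM, ratio 0.15, 0.0292 to 0.486), where 10.6% of all genes were lower. Oligodendrocytes read 1.93 CPM (0.399 to 5.65) in control and 6.86 (2.23 to 16) in CKO, and the Glut_0 values do not lie above these intervals. Glut_1 had 27 and 5 UMIs of Aldh1a1 (ratio 0.29, 0.0872 to 0.764), with 11.9% of all genes lower. The 27 lay in 17 of 1632 nuclei, 6 of them in a single nucleus, and shares after thinning were 0.0642% and 0.0529%. Glut_14 had 22 and 6 (ratio 0.397, 0.132 to 1.01), with 5.91% of all genes lower. The 22 lay in 11 of 421 nuclei, 5 of them in a single nucleus, and shares after thinning were 0.732% and 0.213%. Aldh1a1 read higher in CKO in vSMCs (51.1 and 81.3 CPM on 79 and 21 UMIs) and in CP_8 (19.8 and 26.6 on 45 and 19). Neither was called, and the intervals overlapped. It read lower without a call in CP_6 (29.1 and 17.6 CPM) and GABA_9 (6.53 and 5.37). Aldh1a2 in glia read 276 and 210 CPM, a ratio of 0.762 (0.611 to 0.944), without a call.

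Rarb was not called in its 3 highest control labels. In GABA_9 its ratio was 1.18 (1.12 to 1.25), an interval above 1 but a ratio short of the fold, and it was seen in 85.8% of control and 84.8% of CKO nuclei (46.1% and 52.6% after thinning, median depths 3495 and 1408). In glia the Rarb ratio was 1.1 (0.917 to 1.3) and in CP_6 it was 1.12 (0.95 to 1.31). In Glut_1, the next label of the control order, Rarb read 68.4 CPM (62.4 to 74.8) in control and 40.5 (34.8 to 46.8) in CKO, a ratio of 0.592 (0.495 to 0.704) without a call. It was called lower in Glut_0, at 20.3 and 9.29 CPM, a ratio of 0.457 (0.349 to 0.594). Glut_11 had 32 Rarb UMIs in control and 0 in CKO, at least 5.82-fold lower from 14.1 CPM, in a label where 12.2% of all genes were lower. In Glut_20 Rarb had 19 and 1 UMIs (36.1 and 5.62 CPM, ratio 0.156, 0.00375 to 0.98), with 13.5% of all genes lower there. The 19 control UMIs lay in 6 of 329 nuclei, 9 of them in a single nucleus, and the shares were 1.82% (0.672 to 3.93) and 0.588% (0.0149 to 3.23), or 1.16% and 0.84% after thinning, at median depths of 963 and 666, so that this call rests on a few nuclei. Whether the GABA and Glut labels hold the same kinds of cell in both libraries was not tested.

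Dhrs3 in glia read 72.7 and 102 CPM, a ratio of 1.4 (0.994 to 1.96), and in CP_8 72.6 and 78.3, a ratio of 1.08. In CP_6 its ratio was 0.8 (0.582 to 1.09) and in vSMCs 0.961. It was called lower in Glut_21, on 19 and 2 UMIs (16.6 and 2.42 CPM, ratio 0.145, 0.0164 to 0.603), where 4.38% of all genes were lower. Microglia had 29 Dhrs3 UMIs in control and 0 in CKO, but with 11 CKO nuclei the floor gives only at least 1.77-fold lower, and 52.1% of all genes tested in microglia were lower. Cyp26b1 read 26.6 and 56.2 CPM in Glut_20 on 14 and 10 UMIs, a ratio of 2.11 (0.84 to 5.12), against 8.67% of all genes there that were higher. Scaling by TMM brought this to 1.84. In astrocytes the Cyp26b1 ratio was 1.31, without a call. Aldh1a3 in Glut_0 had a ratio of 1.93 (0.967 to 3.93), and Rbp4 in Glut_14 had 0 and 11 UMIs, which is fewer than needed for a call.

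Likeness of expression across brain labels was read as Pearson correlation of log2(CPM + 1) over 38 sums of label and library, for 14448 genes. The 38 points share 2 libraries and the same labels, so the values describe and do not test. Nearest to Stra6 were Perp (r = 0.931), Crybg1 (0.906) and Isyna1 (0.901). Aldh1a1 lay nearest to Slc7a11 (0.929), Aldh1a2 to Itih2 (0.938), Rarb to Cftr (0.821), Dhrs3 to Ezr (0.946) and Cyp26b1 to Slc13a3 (0.858). With log2(CPM + 10) instead, 12 of the 18 nearest genes (3 for each of 6 members) were the same. For Stra6 only Perp was kept, with Slc26a2 (0.941) now nearest, and the nearest gene became Lonrf3 for Aldh1a1, Slc22a6 for Aldh1a2 and Col4a5 for Dhrs3. Between members, Aldh1a1 and Dhrs3 had r = 0.79, Aldh1a1 and Aldh1a2 0.77, Stra6 and Aldh1a2 0.76, and Stra6 and Dhrs3 0.75, while Rarb and Cyp26b1 had 0.11.

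In the genome the members lie on 6 chromosomes: Stra6, Crabp1 and Aldh1a2 on chromosome 9, Aldh1a1 and Rbp4 on 19, and the others each alone. Promoters, taken from RefSeq starts on build GRCm38.p6 as 250 bases before the start and 50 after it, were at hand for 8 of the 9 members (15 promoters, none for Aldh1a3). The retinoic acid response element repeats DR1, DR2 and DR5 were searched on both strands. A repeat was found in 193 of 32851 promoters (0.588%) and in 1 of the 15 member promoters, a DR5 of Rarb. DR5 alone was found in 32 of the 32851 (0.0974%). The repeat begins 53 bases before the start of Rarb, in the promoter at chr14:16575427-16575726 on the minus strand. That promoter is printed because it is the only member promoter with a repeat, shown in capitals, and a match describes the sequence and says nothing of binding here.

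Rarb promoter: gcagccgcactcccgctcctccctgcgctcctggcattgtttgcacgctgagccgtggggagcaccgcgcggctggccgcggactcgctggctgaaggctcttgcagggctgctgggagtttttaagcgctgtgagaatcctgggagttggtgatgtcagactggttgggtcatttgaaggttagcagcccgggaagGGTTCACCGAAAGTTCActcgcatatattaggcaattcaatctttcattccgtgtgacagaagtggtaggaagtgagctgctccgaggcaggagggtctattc

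The retina comparison asks which members differ between the control and the CKO libraries within a retinal label. Labels with at least 20 nuclei in the control and in at least 3 CKO libraries were fitted with the quasi-likelihood model of edgeR. The model held batch (a column of the authors' cell table) combined with kit version. With this term, each log2 rests on the control and the CKO libraries of its batch, replicates 1, 2 and 3. The other CKO libraries add to the spread only, while ranges and tallies below cover all fitted CKO libraries. Log2 values are CKO minus control, SE is the standard error, and adjusted p values are Benjamini-Hochberg over all genes tested in that label, with 0.05 as the threshold. There were 10 labels fitted, and Astrocytes could not be fitted because the control had 12 nuclei. With 1 control library, the spread in these tests comes from the CKO libraries alone. The smallest two-sided exact permutation p possible is 0.0909, or 0.0833 in RGC with its 12 libraries. This permutation swaps the control with any library and ignores batch and kit version. Within the batch of the control the smallest possible value would be larger.

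No member passed in retina, where the control is 1 library and so few pairs of any gene passed that this says little about the members. Of 90 pairs of member and label, 42 had at least 30 UMIs and were tested, over 7 members, and Rbp4 and Aldh1a3 were too sparse throughout. The edgeR quasi-likelihood test called 0 of the 42 pairs, against 33 of 142909 pairs of any gene (0.0231%), and 2 of the 42 had an unadjusted p under 0.05 (4.76%, against 4.79% of all genes). DESeq2 called 0 of the members, with 2 under 0.05 unadjusted. The smallest adjusted p of a member was 0.684 by edgeR. The median log2 of the 42 pairs was 0.10 against 0.00 for all genes, with 23 above 0 and 19 below. With the 1 pair at 0 control UMIs set to its bound (control at 3 UMIs), the median was 0.10.

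Stra6 was sparse in whole retina. Over the whole library it read 1 CPM (31 UMIs) in the control and 0.7 to 1.94 CPM in the CKO libraries, with 0 UMIs in replicate 4. Medians by label here and below are over the libraries with at least 20 nuclei of the label. Those of Stra6 were 5.05 CPM in Cones (0 to 9.23), 2.49 in CBC, 1.22 in GABA_AC, 1.16 in RBC and 1.01 in RGC, with overlapping ranges, and lower elsewhere. In CBC it read 1.89 CPM (0.906 to 3.48) in the control and 0.45, 2.5 and 3.17 (lowest, median and highest) in 10 CKO libraries. The control lay inside the CKO range, with 6 of 10 CKO values above it, and log2 was 0.20. In Cones the control read 2.76 CPM on 3 UMIs and the CKO libraries 0, 5.33 and 9.23, with 9 of 10 above the control. Endothelial nuclei have no label of their own here: endothelial markers (9 of 9) read 94.8 CPM in the control and 76.8 to 154 in CKO. The 313 control nuclei with at least 2 of these markers held 2 of the 31 Stra6 UMIs, and such nuclei held 0 to 9 Stra6 UMIs per library, so the endothelial Stra6 difference of the brain could not be looked for in retina. Markers of the pigment epithelium, another known site of Stra6, read 19.7 CPM in the control and 9.27 to 16.1 in CKO apart from replicate 4 at 0, and their part was not tested.

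Crabp1 was highest in Gly_AC, with a median of 17 CPM over libraries (10.5 to 31.9), apart from the next label, GABA_AC, at 4.07 (0 to 6.3). HC at 2.12, RGC at 2.07 and MG at 1.46 followed with overlapping ranges. In Gly_AC the control read 14.1 CPM (10.5 to 18.6) and the CKO libraries 10.5, 17.9 and 31.9, with 7 of 10 above the control and log2 0.58 (SE 0.43). In GABA_AC the control read 0.541 CPM on 3 UMIs and the CKO libraries 0, 4.26 and 6.3, with 9 of 10 above it. In CKO replicates 1, 2 and 3, on which the log2 rests, Crabp1 read 4.53, 0 and 1.39. Its log2 was 2.15 (SE 1.10), with an edgeR adjusted p of 1 (0.885 to 1 over the alternatives).

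Aldh1a1 was highest in MG, with a median of 57.8 CPM (43.9 to 93.6), apart from the next label, HC, at 11.2 (0 to 19.1). The wide range of Immune_cells, on 15 UMIs, overlapped that of MG. Below HC came Immune_cells at 7.78 (0 to 93), Astrocytes at 7.44 (4 CKO libraries, 8 UMIs), RGC at 4.76, GABA_AC at 3.34, Gly_AC at 3.13, CBC at 2.95, Cones at 1.54, Rods at 1.17 and RBC at 1.16, each overlapping its neighbour. In MG the control read 80.7 CPM (67 to 96.4) and the CKO libraries 43.9, 56.2 and 93.6, with 2 of 10 above the control. Log2 was -0.34 (SE 0.31), and the ranges overlapped. The closely related gene Aldh1a7 had 274 UMIs in retina against 1588 of Aldh1a1, and 23 in brain against 2518. Of the 274, 114 lay in GABA_AC, against 159 of Aldh1a1, and 80 in MG, against 862. Reads of either gene could be taken for the other. Aldh1a2 had few UMIs in every label, at most 45 (Gly_AC). There the control read 0.283 CPM on 1 UMI and the CKO libraries 0, 1.54 and 3.3, with 9 of 10 above it. Aldh1a3 had at most 28 UMIs in a label (MG, median 0.816 CPM), and Rbp4 at most 14 (CBC).

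Dhrs3 was highest in Rods, with a median of 131 CPM (110 to 171), followed by Immune_cells at 107 (62.3 to 163), Cones at 54.4, MG at 40.4, CBC at 36.3, HC at 35.8, RBC at 31.9, Gly_AC at 31.1, Astrocytes at 24.5 (4 CKO libraries), RGC at 22.3 and GABA_AC at 20.6. Every label overlapped with its neighbour in this order. In Rods the control read 159 CPM (151 to 168) and the CKO libraries 110, 129 and 171. The control lay in the upper part of the CKO range, with 3 of 10 above it, and log2 was -0.29 (SE 0.18, exact permutation p 0.545). In MG Dhrs3 read 43.7 in the control and 33.5, 39.8 and 52.9 in CKO. In HC the control read 20 and the CKO libraries 12.1, 36.3 and 45.7, with 9 of 10 above it and log2 0.57. Immune_cells read 114 (60.5 to 194) in the control and 62.3, 106 and 163 in CKO, but the paper describes immune cells other than microglia only in CKO retinas, so the label does not hold the same cells in both. Over the whole retina Dhrs3 read 65.5 CPM in the control and 45.2 to 65 in CKO, apart from replicate 4 at 77.4 on 7 UMIs.

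Cyp26b1 was sparse, with 41 UMIs in MG and 45 in GABA_AC. Its highest median was 12.4 CPM (0 to 26.1) in Astrocytes, on 9 UMIs over 4 CKO libraries and without the control, and its range overlapped that of MG at 1.63 (0 to 7.4). In MG the control read 1.99 CPM and the CKO libraries 0, 1.62 and 7.4, and in GABA_AC the control read 0.721 and the CKO libraries 0.464, 1.05 and 1.8.

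Rarb was read in every retinal label. Its medians over libraries were 88.8 CPM (73.8 to 108) in MG, 42 in RGC, 41.2 in Rods, 39.4 in Gly_AC, 33.3 in GABA_AC, 25.9 in Cones and 17.5 to 18.7 in CBC, RBC, HC and Immune_cells, with each label overlapping its neighbour. Astrocytes had only 4 libraries with at least 20 nuclei, all CKO, with a median of 120 CPM (36.1 to 130), while the control read 224 (90 to 461) on 12 nuclei and 7 UMIs. Gly_AC had the lowest p of any member: the control read 20.6 CPM (16.2 to 26) and the CKO libraries 26, 39.9 and 44.5, so all 10 lay above the control. In CKO replicates 1, 2 and 3, which share the batch of the control, it read 39.4, 42 and 30.1. The log2 rests on these libraries, while the exact permutation swaps the control with all 10 and ignores batch and kit version. Log2 was 0.82 (SE 0.25), with an edgeR adjusted p of 0.684 (0.274 to 1 over the alternatives) and an exact permutation p of 0.0909, the smallest possible. In Cones Rarb read 13.8 CPM (7.74 to 22.8) in the control and 10.8, 26.3 and 52.2 in CKO, with 9 of 10 above the control. CKO replicates 1, 2 and 3, on which the log2 rests, read 47.3, 52.2 and 18.5 there. Log2 was 1.54 (SE 0.58), with an edgeR adjusted p of 0.894 (0.464 to 1) and an exact permutation p of 0.364. In MG Rarb read 92 (77.3 to 109) in the control and 73.8, 88.3 and 108 in CKO, with 3 of 10 above it and log2 -0.11. In Rods it read 36.4 in the control and 29.5, 41.4 and 55.8 in CKO, with 8 of 10 above it and log2 0.30. In RGC, with 11 CKO libraries, the control read 42.9 (35 to 51.9) and the CKO libraries 0, 41.2 and 74.5. The 0 is CKO replicate 4, with 36147 UMIs in RGC, and the next lowest value was 24.8.

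**Figure D3:**
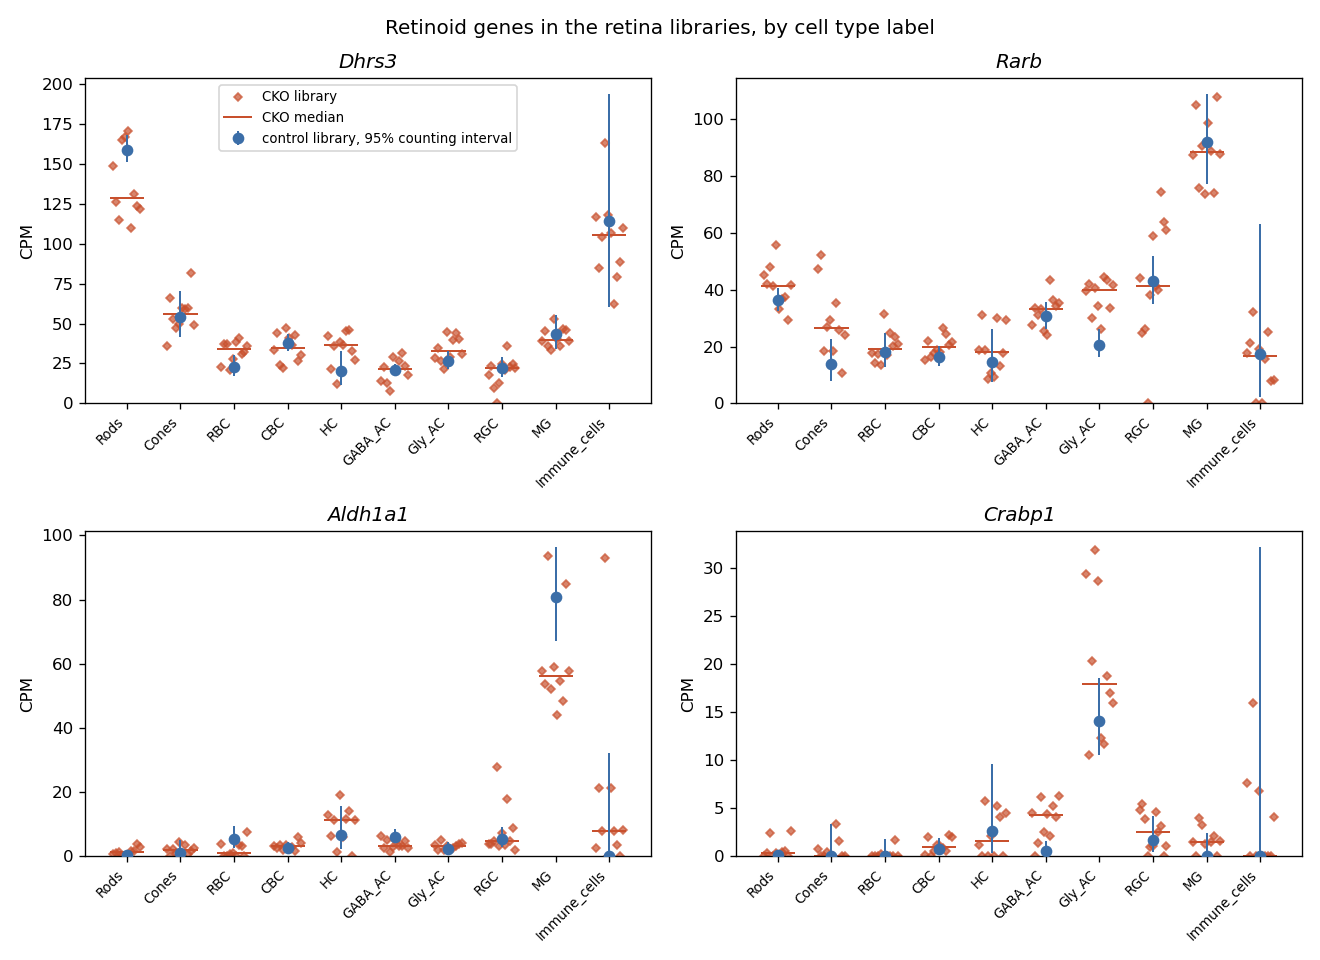
CPM of Dhrs3, Rarb, Aldh1a1 and Crabp1 per retinal label, CKO libraries as red diamonds with a red line at their median and the control as a blue circle with its 95% counting interval. The control lies within the spread of the CKO libraries for these genes in all labels where it is shown, except for Rarb in Gly_AC, where it lies below.

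The 61 further retinoid genes gave 388 tested pairs in retina over 53 genes, of which edgeR called 0, with 13 at an unadjusted p under 0.05 (3.35%) and a median log2 of -0.01. By label, the genes called among all genes were 10 in Rods, 6 each in Cones and MG, 5 each in Gly_AC and RBC and 1 in GABA_AC, and 0 elsewhere.

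Together, Stra6 was 8.24-fold lower and Dhrs3 2.42-fold lower in the brain EC label of the CKO library, from 50.5 to 6.13 and from 30.3 to 12.6 CPM, while Stra6 in glia read 151 and 208 CPM. These are values of 1 library per genotype, made of pooled animals that also differed in sex-linked genes, and differences between animals, preparation and genotype cannot be told apart. The paper already shows Stra6 as decreased in CKO ECs of these data. In glia the Stra6 difference was short of the fold of 2, and scaling by TMM lowers it. In retina no member passed among 42 tested pairs, with 1 control library. The spread there came from the CKO libraries alone, so this says little about the members.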

How the data were processed

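The deposited UMI counts of the brain and retina matrices, as given by the authors after background removal with CellBender and doublet removal with SOLO, and after a manual removal of mixed nuclei and of clusters from CKO retina replicates 4 and 5, were summed per cell-type label and library. The authors' labels were used for cell types, and no nuclei were removed here. Tests ran in R 4.3.3 with edgeR 4.0.16 and DESeq2 1.42.0. Sums were made with pandas 2.3.3 and numpy 2.4.6, intervals with scipy 1.17.1 and figures with matplotlib 3.10.9, all under Python 3.11.15. Brain intervals are exact Poisson intervals at 95% for levels and exact binomial intervals for ratios (conditional on their sum) and shares. Shares were also taken from nuclei thinned at random to 500 UMIs, leaving out nuclei with fewer. Retina fits took labels with at least 20 nuclei per library, genes with at least 30 UMIs over all libraries, TMM factors, batch combined with kit version, and genotype. DESeq2 took the same sums and model. Alternatives were kit version alone or batch alone, only the batch of the control, only the earlier kit, other thresholds of nuclei, UMIs and fold, no TMM, filterByExpr or no filter, adjustment over all labels, leaving out libraries, TMM within brain labels, deeper nuclei, means over nuclei, and other choices of endothelial nuclei. The 9 genes, the further retinoid genes and the marker lists were chosen by name with earlier results of these data known. Upstream, the labels name build mm10 and Seurat, while the methods name an index of GRCm39, and which annotation gave the gene names was not settled here. Promoters came from RefSeq on GRCm38.p6.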

Additional observations from a re-analysis of the deposited data

Results flagged for a closer look

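In the fitted labels with 10 CKO libraries, which leaves out RGC with its 11, the value furthest from its neighbour was looked for in 38 pairs of member and label (gap to the next value over the whole range, at the 5% level, so about 1 in 20 would be named by chance). In 1 pair a library stood apart: Aldh1a1 in RBC read 7.5 CPM on 10 UMIs in CKO replicate 11, while the next highest library read 3.82, a gap of 0.49 of the range. It was kept in all values.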

How the results depend on the processing

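No paired analysis was possible because each tissue had only 1 control library. In brain ECs, the 2 lower members became 1 (of 1 tested) in nuclei with 0 pericyte-marker UMIs and 4 (of 6) in any nucleus with at least 2 endothelial markers, and were 2 to 3 otherwise. The 11 lower pairs of member and label became 4 (of 30) when at least 50 UMIs were asked for, and were 9 to 16 otherwise. The Stra6 ratio in ECs ran from 0.107 to 0.232, apart from nuclei with 0 pericyte-marker UMIs, where it was 0 (0 to 1.31, on 10 and 0 UMIs), and that of Dhrs3 from 0.147 to 0.474. TMM shifts within brain labels over 0.1 log2 were 1.45 in pericytes, 1.15 in microglia, 0.62 in Glut_5, 0.35 in OPCs, 0.24 in astrocytes, 0.22 in glia and GABA_22, 0.20 in Glut_20, 0.17 in vSMCs, 0.12 in CP_8, 0.10 in ECs, -0.11 in Glut_17 and -0.15 in oligodendrocytes. In retina 0 members passed under each of 14 alternatives, with 2 to 4 pairs at an unadjusted p under 0.05. Genes called among all genes went from 33 to 4 (kit version alone in the model), 7 (batch alone), 38 (only the control's batch), 21 (without CKO replicates 4 and 5), 91 (at least 50 nuclei), 23 (no TMM), 114 (DESeq2), 784 (no filter), 19 (earlier kit only), 20 (adjustment over all labels), 21 (filterByExpr) and 44 to 66 (leaving out 1 of CKO replicates 1 to 3); the cause was not tested. The sets with 0 fibroblast-marker UMIs and with the earlier kit only were chosen after the data had been seen.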
